A study of Mus musculus with 4 samples.

Results

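Cadherins and protocadherins are the calcium-dependent adhesion proteins of vertebrate tissue. Their members here were all gene symbols in the 4 deposited libraries made of Cdh and a number, or starting with Pcdh, which gave 90 of the 20719 genes listed. Of the 90, 23 were Cdh genes and 67 Pcdh genes, and 55 of the Pcdh genes belonged to the alpha (12), beta (22) and gamma (21) clusters. The other 35 comprised 5 type I and 13 type II classical cadherins, 5 atypical cadherins, 4 delta-1 and 5 delta-2 protocadherins and 3 other protocadherins. All 90 were listed in at least 1 library and 75 in all 4. A member missing from a library counted as 0.

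Classical cadherins bind partners of the same kind on the neighbouring cell through their outermost extracellular domain, and their cytoplasmic tail holds beta-catenin and p120-catenin, which couple the junction to actin. Cells that carry different cadherins tend to sort from each other, and in the early neural tube the exchange of E-cadherin for N-cadherin is a textbook mark of neural plate formation. Delta protocadherins bind more weakly and act in cell movement and axon outgrowth. Most clustered protocadherins are chosen at random and give single neurons a surface identity. In the alpha and gamma clusters the choice is among arrays of alternative first exons.

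Single-cell RNA sequencing was done on mouse embryos at stage E10.5, with tissue labelled embryonic brain and taken, per the protocol, from whole heads kept overnight in preservation solution and sorted for live cells with DAPI. The 2 groups were wild type (WT) and Apcdd1+/-, with 1 altered copy of Apcdd1, a membrane inhibitor of Wnt signalling. Each group had 2 libraries, labelled replicates 1 and 2. What strain and kind of allele were used, and the number of embryos or litters per library, is not given in the labels, so p-values measure only the spread between these libraries, which may be technical.

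The libraries held 3122 to 9735 cell barcodes and 55393605 to 96822641 UMIs (unique molecular identifiers, which count captured RNA molecules). A total of 24259 of 25074 barcodes passed the filters, and 17238 fell into exactly 1 class gated on marker genes, none of them a member. The classes were neural progenitors (12154 cells), mesenchyme (2550), neurons (1219), epithelium (728), endothelium (209), macrophages (163), erythroid cells (129) and Sox10-type crest and glia (86). Each class was checked with markers held out of its own gate, though Fabp7, used for crest and glia, was a gate marker of progenitors. Of 40 such markers, 38 were detected more often in their class than elsewhere. The labelled brain tissue thus also held face and vessel cells. WT replicate 2 was the deepest library, with a median of 17133.5 UMIs per kept cell against 8934.5 to 11506 in the others, and Apcdd1+/- replicate 1 had only 9 hindbrain-gated and 12 crest-gated cells. Pairs of libraries shared between 6 and 25 bead barcodes, counted from lists of which one is shorter than its matrix. Apcdd1 itself measured 77.4 and 49.5 counts per 1000000 UMIs (CPM) over all cells of the libraries labelled Apcdd1+/- and 63.4 and 60.8 CPM in WT, so its level did not separate the genotypes.

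Values below are CPM of summed raw counts, given per library in the order Apcdd1+/- replicates 1 and 2, then WT replicates 1 and 2, followed by the mean ± SD (n = 4) where stated. Counts were compared across classes with edgeR's quasi-likelihood test with the library as a block. Differences are log2 values ± SE, and a member was called different at a Benjamini-Hochberg adjusted p under 0.05 over all genes tested and a log2 difference of at least 1 in size. Levels of different genes were not compared, since the labels do not say which part of a transcript was captured.

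Members differed strongly between tissue classes. Of the 29 members with enough counts to be tested, 28 differed among the 7 classes of at least 20 cells, with Cdh18 the exception (adjusted p = 0.125), beside 94.3% of all genes tested. In the fit that admits classes with 10 cells or more, 27 of 27 differed. The remaining members did not pass the filter on low counts in that fit. Of the 35 outside the clusters, 10 stayed under 10 CPM in every class, region and subtype, whether tested or not: Cdh9, Cdh10, Cdh15, Cdh16, Cdh17, Cdh18, Cdh23, Cdh26, Pcdh11x and Pcdh20. Their highest class means ranged from 0.460 CPM for Cdh17 to 6.37 CPM for Pcdh11x in Phox2 neurons.

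**Figure D1:**
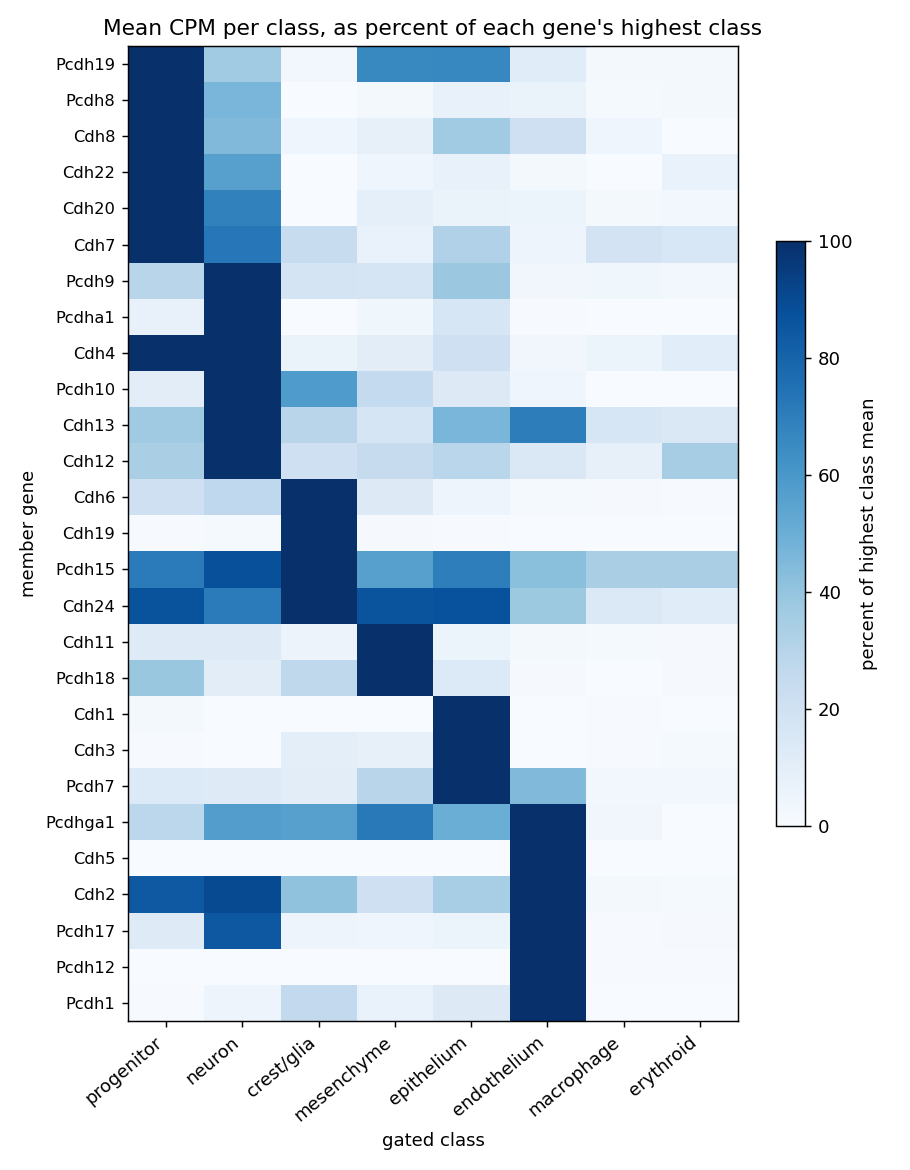
Mean level of 27 members (rows) in 8 gated classes (columns), as a percent of each gene's highest class mean, over up to 4 libraries. The top squares of Cdh1 and Cdh3 sit in epithelium, of Cdh5 and Pcdh12 in endothelium, of Cdh6 and Cdh19 in crest and glia, and of Cdh11 and Pcdh18 in mesenchyme.

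The type I cadherins split by epithelium and neural tissue. Cdh1, E-cadherin of epithelial junctions, measured 100, 73.2, 78.1 and 90.4 CPM in epithelium-gated cells (85.5 ± 12.3) and 1.49, 0.884, 1.30 and 1.73 CPM in progenitors (1.35 ± 0.358). All 4 epithelial values lay far above all progenitor values, with a log2 difference of 5.94 ± 0.19 (adjusted p = 5.9e-28). Neurons held 2 Cdh1 UMIs in all, 0.114 times the progenitor level with a 95% counting interval of 0.0138 to 0.419. Cdh3, P-cadherin, measured 78.4, 74.4, 87.3 and 79.3 CPM in epithelium (79.9 ± 5.36) and 0.415 ± 0.179 CPM in progenitors, which was 7.57 ± 0.21 higher on the log2 scale (adjusted p = 3.3e-32). Unlike Cdh1, Cdh3 was also present in mesenchyme at 6.36, 8.02, 7.35 and 4.07 CPM, above progenitors by 4.06 ± 0.24 (adjusted p = 6.3e-20). Cdh1 was lower in mesenchyme than in progenitors by −2.41 ± 0.42 (adjusted p = 4.7e-06).

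Both genes lie on the plus strand of chromosome 8 (mm10, GENCODE vM21), Cdh3 at chr8:106510891-106557297 and Cdh1 at chr8:106603351-106670246, 46054 bases apart. Both had their highest mean in epithelium and had opposite differences from progenitors in mesenchyme.

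N-cadherin, Cdh2, which joins neuroepithelial cells at their apical junctions, had the reverse layout. It measured 105, 105, 108 and 129 CPM in progenitors (112 ± 11.6), 99.1, 120, 110 and 147 CPM in neurons (119 ± 20.7) and 107, 105, 160 and 159 CPM in endothelium (133 ± 31.1). Epithelium had 50.1, 45, 43.8 and 44.8 CPM (45.9 ± 2.8), and mesenchyme 27.4, 24.7, 27.3 and 31.6 CPM (27.8 ± 2.84). The 3 high classes overlapped, and epithelium and mesenchyme lay under all of them. Epithelium was −1.30 ± 0.10 against progenitors (adjusted p = 4.9e-15) and mesenchyme −1.92 ± 0.09 (adjusted p = 7.1e-24). In neurons the difference from progenitors was 0.10 (adjusted p = 0.32).

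Cdh4, R-cadherin of the neural tube and retina, was shared by progenitors (26.5 ± 1.76 CPM) and neurons (26.7 ± 4.23 CPM) and lower outside neural tissue. Epithelium had 5.60 CPM and mesenchyme 2.77 CPM.

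Some single epithelium-gated cells held both Cdh1 and Cdh2. With each cell thinned to 5000 UMIs, 36.4% of 659 epithelium-gated cells had a Cdh1 UMI, 14.9% a Cdh2 UMI and 3.79% both. Unthinned, the shares were 58.1%, 31.2% and 16.2% of 728 cells. Progenitors had a Cdh1 UMI in 0.571% and mesenchyme in 0.122% of thinned cells, a share that free RNA can also give, at median depths of 11360 UMIs in progenitors, 15500 in mesenchyme and 11950 in epithelium before thinning. Erythroid cells, at a median of 18980 UMIs, had a Cdh2 UMI in 1.79% of thinned cells. Whether cells with both were doublets was not tested.

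**Figure D2:**
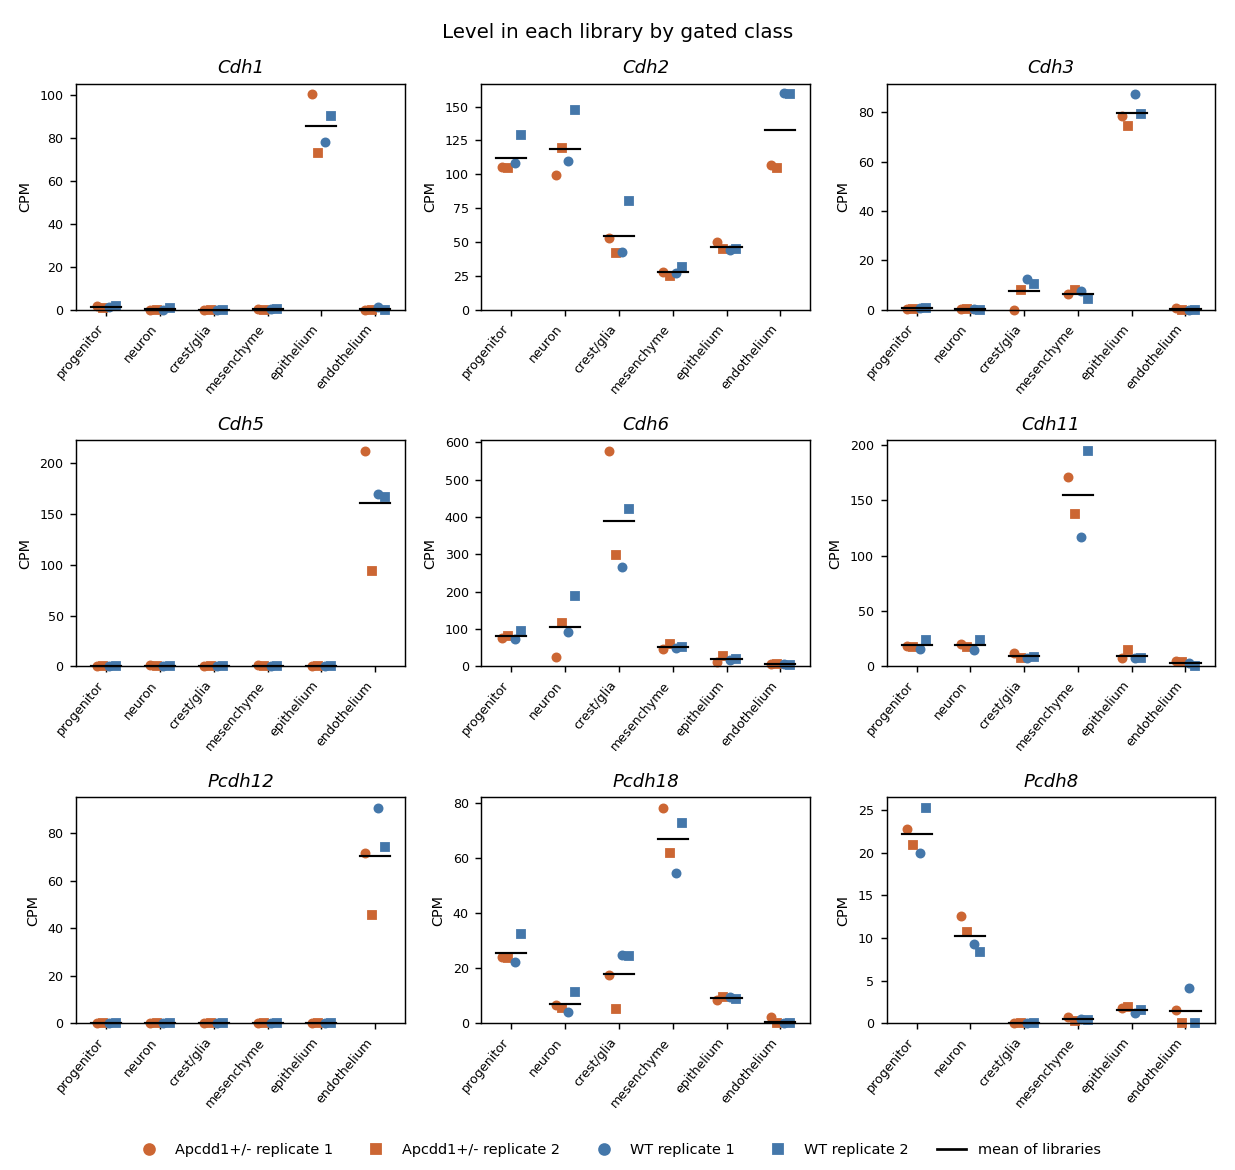
CPM (vertical axes, linear, each with its own scale) of 9 members in 6 gated classes, with 1 point per library, colour for genotype and a bar for the mean. Cdh1 and Cdh3 stand high in epithelium, Cdh5 and Pcdh12 in endothelium, Cdh6 in crest and glia, and Cdh11 and Pcdh18 in mesenchyme, with the 4 libraries of these groups above the classes that are low.

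Among type II cadherins, Cdh5, VE-cadherin of endothelial junctions, measured 212, 94.2, 170 and 167 CPM in endothelium (161 ± 48.9) and at most 0.502 CPM in any other class. Pcdh12, another vessel protocadherin, had 71.7, 45.4, 90.5 and 74.1 CPM there (70.4 ± 18.7) and 0.0607 CPM in progenitors, which is 8 UMIs. Endothelium was tested in a fit added after the class sizes were known, because fewer than 3 libraries reached 20 such cells. In that fit Pcdh12 was 10.09 ± 0.43 above progenitors (adjusted p = 9.5e-24) and Cdh5 10.01 ± 0.34 (adjusted p = 4.2e-27). Of the members tested there, 7 were higher and 12 lower than in progenitors, beside 16% and 15.5% of all genes. Among the 12 lower ones, the call of Pcdha1 was lost with DESeq2 (adjusted p = 0.0501), with thinned cells, without cells above 2 times the median UMI count and without Apcdd1+/- replicate 1, Apcdd1+/- replicate 2 or WT replicate 2. The call of Cdh24 was lost without Apcdd1+/- replicate 1, WT replicate 1 or WT replicate 2. Cdh5 was present in 59.8% of thinned endothelial cells, and 26.6% had both Cdh5 and Cdh2.

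The other 5 members above progenitors in endothelium were Pcdh1 (7.39 ± 0.28), Pcdh17 (3.31 ± 0.20), Pcdhgc3 (2.69 ± 0.46), Pcdhga1 (1.96 ± 0.10) and Pcdh7 (1.95 ± 0.28). Pcdh17, a delta-2 protocadherin known from axon tracts, measured 121, 101, 101 and 77.8 CPM there (100 ± 17.5).

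Cdh6, a type II cadherin that emigrating neural crest is known for, measured 577, 298, 267 and 420 CPM in crest and glia (391 ± 140). Progenitors had 75.2, 82.3, 72.5 and 95.2 CPM (81.3 ± 10.1), and no crest value overlapped them. Neurons had 23.8, 115, 91.3 and 188 CPM (105 ± 67.6), a spread that covers the progenitor level. Mesenchyme had 51.7 ± 5.57 CPM. The crest difference was 1.96 ± 0.22 (adjusted p = 8.5e-10), fitted on 3 libraries because Apcdd1+/- replicate 1 had 12 such cells. Cdh19, the Schwann cell cadherin, measured 76.5, 23.5, 20.0 and 40.1 CPM in crest and glia (40.0 ± 25.8) and at most 0.470 CPM elsewhere, for a log2 difference of 6.76 ± 0.52 (adjusted p = 1.3e-13).

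In crest and glia 5 members were higher and 7 lower than in progenitors, beside 4.05% and 6.77% of all genes. Pcdh1, Cdh3 and Pcdh10 were the other 3 that were higher, by 5.47 ± 0.53, 4.72 ± 0.69 and 2.86 ± 0.55. Cdh20, Cdh22 and Pcdh8 had no UMI in this class. Against a floor of 3 counts over the class, the progenitor levels were at least 4.79-fold, 5.63-fold and 11.2-fold higher. Cdh6 had a UMI in 67.5% of thinned crest cells against 23.2% of thinned progenitors. Pcdh17 was lower by −2.54 ± 0.80 (adjusted p = 0.020), a call lost without the library block (adjusted p = 0.0765) and with at least 10 cells a sum (0.0816).

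Cdh11, the type II cadherin of loose mesenchyme, measured 171, 137, 117 and 194 CPM in mesenchyme (155 ± 34.4) and 18.5, 17.4, 16.0 and 23.7 CPM in progenitors (18.9 ± 3.34). Every mesenchymal value exceeded every progenitor value, with a log2 difference of 3.11 ± 0.09 (adjusted p = 4.5e-32). Pcdh18, a delta-2 protocadherin, had 78.3, 61.9, 54.8 and 72.8 CPM in mesenchyme (66.9 ± 10.6) and 24.3, 23.9, 22.2 and 32.4 CPM in progenitors (25.7 ± 4.58), a difference of 1.48 ± 0.09 (adjusted p = 4.3e-19).

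Mesenchyme had 8 members higher and 11 lower than progenitors, beside 7.66% and 10.1% of all genes. Besides Cdh3, Cdh11 and Pcdh18, the higher ones were Pcdh1 (3.51 ± 0.28), Pcdhgc3 (1.80 ± 0.25), Pcdhga1 (1.42 ± 0.07), Pcdh10 (1.31 ± 0.25) and Pcdh7 (1.17 ± 0.15). The lower ones were led by Pcdh8 (−5.33 ± 0.21, adjusted p = 4.4e-26), the paraxial protocadherin, and by the type II cadherins Cdh22 (−4.41 ± 0.26), Cdh7 (−3.77 ± 0.39), Cdh8 (−3.53 ± 0.22) and Cdh20 (−3.38 ± 0.25). Calls near the size limit fell under it in some runs. Pcdh10 was 0.98 without WT replicate 2. Cdh13, 1 of the lower ones, lay between −0.86 and −0.98 without Apcdd1+/- replicate 2, WT replicate 1 or WT replicate 2. Pcdha1, also lower, was −0.81 when WT replicate 1 was left out and −0.94 when Apcdd1+/- replicate 1 was. Thinned cells took Cdh13 (−0.64, adjusted p = 0.117) and Pcdha1 (−0.52, adjusted p = 0.366) past the adjusted p limit too. Stricter gates gave −0.97 for Cdh13 and −0.94 for Pcdha1, and sums of at least 10 cells −0.998 and −0.993. Leaving out cells above 2 times the median UMI count gave −0.84 and −0.79. Epithelium had 5 higher and 10 lower, beside 11.2% and 6.86% of all genes. The higher ones were Cdh3, Cdh1, Pcdh1 (4.17 ± 0.33), Pcdh7 (2.86 ± 0.16, adjusted p = 1.1e-20) and Pcdha1 (1.08 ± 0.28, adjusted p = 0.0018). The call of Pcdha1 was lost without WT replicate 1 (0.73, adjusted p = 0.0647), and its difference was 0.93 with stricter gates.

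Pcdh7, a delta-1 protocadherin, measured 53.8, 55.1, 62.2 and 60.7 CPM in epithelium (57.9 ± 4.12) and 7.83 ± 1.06 CPM in progenitors, with no overlap. Pcdh1, the protocadherin also known from airway epithelium, had its highest mean in endothelium at 71.7, 48.8, 48.9 and 66.7 CPM (59.0 ± 11.9) and 0.380 ± 0.133 CPM in progenitors. Pcdh15, of the inner ear hair bundle, lay between 6.52 and 19.3 CPM in the class means and had no single home. Cdh24 was likewise even between progenitors (8.38 ± 0.404 CPM) and mesenchyme (8.32 CPM).

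A further group of type II cadherins, Cdh7, Cdh20 and Cdh22, was largely neural. Cdh22 measured 9.56, 11.2, 12.2 and 11.9 CPM in progenitors (11.2 ± 1.19) and 6.27 ± 0.913 CPM in neurons, where its difference of −0.83 (adjusted p = 0.00065) was under the size set for a call. Cdh20 measured 9.19, 9.86, 8.32 and 10.8 CPM in progenitors (9.55 ± 1.07) and 6.56 ± 2.24 CPM in neurons, and Cdh7 5.45 ± 1.44 and 3.94 ± 3.18 CPM. In mesenchyme Cdh22, Cdh20 and Cdh7 had means of 0.510, 0.854 and 0.367 CPM, below every progenitor library. Epithelium was also lower than progenitors for Cdh22 (−3.66 ± 0.36), Cdh20 (adjusted p = 1e-10) and Cdh7 (−1.69 ± 0.43).

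Blood cells had little of any classical cadherin. Cdh2 averaged 1.66 CPM in erythroid cells and 2.72 CPM in macrophages. No Cdh22 UMI was found in macrophages and no Cdh8 UMI in erythroid cells, where the progenitor levels were at least 12.7-fold and 12.2-fold higher against the floor of 3 counts over the class.

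Neurons were set against progenitors as a class. The neuron class also held sensory ganglion cells, 9.72%, 23.4%, 16.7% and 34.5% of it in the 4 libraries. Its differences from progenitors are thus not changes within 1 lineage alone. Of 29 members tested, 9 were higher and 5 lower in neurons, beside 17.9% and 11.7% of all genes. Higher were Pcdha1, Pcdh10, Pcdh1, Pcdh17, Pcdh9, Cdh12, Cdh13, Pcdh11x and Pcdhga1. Lower were Cdh1, Pcdh18, Pcdh19, Cdh8 and Pcdh8. Across the delta-2 protocadherins the direction was mixed, with Pcdh10 and Pcdh17 higher and Pcdh8, Pcdh18 and Pcdh19 lower.

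Pcdh17 measured 55.2, 70.6, 80.9 and 131 CPM in neurons (84.5 ± 33.0) and 10.1, 11.1, 12.9 and 15.1 CPM in progenitors (12.3 ± 2.18), a difference of 2.75 ± 0.14 (adjusted p = 3.9e-22). Pcdh10 measured 17.0, 26.4, 24.4 and 15.7 CPM in neurons (20.9 ± 5.31) and 1.70, 2.75, 2.50 and 1.80 CPM in progenitors (2.19 ± 0.52), a difference of 3.27 ± 0.24 (adjusted p = 2.7e-15). Neither gene overlapped between the 2 classes. Pcdh9, a delta-1 protocadherin, was the most even between libraries, at 46.3, 48.0, 45.6 and 48.2 CPM in neurons (47.0 ± 1.27) against 11.6, 14.4, 12 and 16.8 CPM in progenitors (13.7 ± 2.44), a difference of 1.81 ± 0.12 (adjusted p = 2.6e-18).

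Cdh13, T-cadherin, which is anchored by a lipid and has no cytoplasmic tail, measured 13.3, 19.7, 20.5 and 10.1 CPM in neurons (15.9 ± 5.01) and 5.85 ± 0.996 CPM in progenitors, 1.47 ± 0.21 higher (adjusted p = 3.7e-08). Cdh12, N-cadherin 2, measured 7.49, 8.06, 10.9 and 15.4 CPM in neurons (10.45 ± 3.6) and 3.52 ± 0.467 CPM in progenitors, 1.56 ± 0.22 higher (adjusted p = 4.1e-08). Both levels were low, and in each gene every neuron value lay above every progenitor value.

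Pcdh18 had 6.47, 5.48, 4.15 and 11.5 CPM in neurons (6.91 ± 3.22), −1.91 ± 0.17 against progenitors (adjusted p = 8.6e-14). Pcdh19, known from female-limited epilepsy, had 28.5, 20.2, 24.5 and 27.3 CPM in progenitors (25.1 ± 3.71) and 9.17 ± 2.58 CPM in neurons, −1.47 ± 0.17 (adjusted p = 1.5e-10). Pcdh8 had 22.7, 20.9, 20.0 and 25.2 CPM in progenitors (22.2 ± 2.3) and 10.2 ± 1.83 CPM in neurons, −1.10 ± 0.16 (adjusted p = 3.5e-08). Cdh8 had 13.4, 13.5, 12.8 and 16.1 CPM in progenitors (13.9 ± 1.48) and 6.25 ± 1.73 CPM in neurons, −1.12 ± 0.21 (adjusted p = 7.2e-06). For these 4 genes every neuron value lay below every progenitor value. Without WT replicate 2, Pcdh8 (−0.96) and Cdh8 (−0.97) were under the size set for a call. With thinned cells Pcdh19 (−0.93), Pcdh8 (−0.94) and Cdh8 (−0.55, adjusted p = 0.0543) were not called either, and Cdh8 was −0.74 with stricter gates. The classical cadherins Cdh2, Cdh4, Cdh6 and Cdh11 were not called, with differences of 0.10, 0.02, 0.28 and 0.01.

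**Figure D3:**
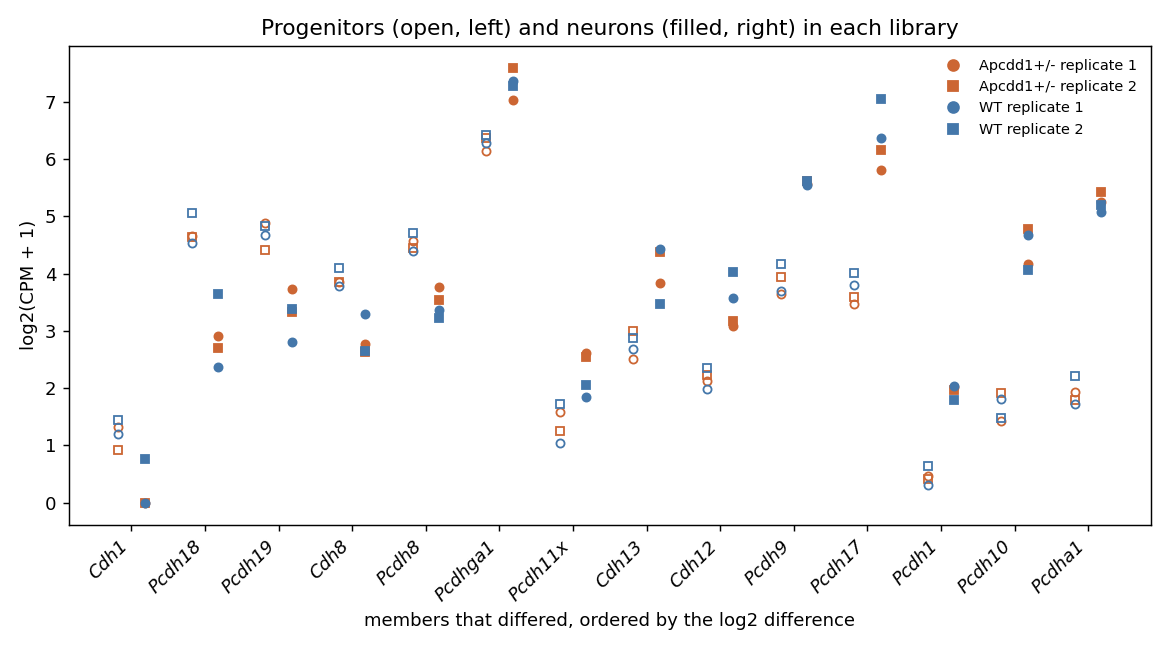
The 14 members that differed between progenitors (open points) and neurons (filled points), as log2(CPM + 1) in each of 4 libraries, ordered from lowest to highest log2 difference. Pcdha1, Pcdh10 and Pcdh17 lie at the right end with no overlap, and Cdh1, Pcdh18 and Pcdh19 at the left.

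Sequence upstream of the start was looked at for the members that differed between neurons and progenitors. E-box hexamers are the sites that proneural factors are known to bind. RefSeq promoters (GRCm38.p6) were matched for 22 member genes, with 25 promoters in all, and the 250 bases before each RefSeq start were searched on both strands. CAGCTG, a palindrome, was in 13% of 32851 promoters and in 2 of the 25 (8%). CAGATG, or CATCTG on the other strand, was in 14.4% of promoters and in 2 of the 25 (8%). The 4 windows are shown because they include Cdh12, which was higher in neurons, and genes that were not, with the hexamer in capitals:
Cdh12, chr15:21111297-21111326 (+): ctccaaggatttCAGCTGatcctttttctc
Cdh9, chr15:16728768-16728797 (+): ctgcagcgccatCAGCTGcgatatcttctt
Cdh7, chr1:109983536-109983565 (+): attcctttgaacCATCTGccctagacctct
Cdh24, chr14:54641484-54641513 (−): ggaggggccccgCATCTGtatgcgcccagc
Of the 9 members higher in neurons, 4 had a promoter in the table and 1 of these held either hexamer. Of the 5 lower ones, 4 had a promoter and 0 held one. The hexamers begin 143, 135, 175 and 137 bases before the RefSeq starts of Cdh12, Cdh9, Cdh7 and Cdh24. These starts lie 662187, 159, 1292 and 0 bases downstream of the start of the gene in GENCODE vM21, so the Cdh12 window is far from the first GENCODE start, and Cdh7 has 3 promoters in the table. A match is a description of letters only.

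Progenitors were then split by regional transcription factors. Of 22 members tested, 16 differed among regions, beside 46.5% of all genes. The 6 that were not called were Cdh12 (adjusted p = 0.104), Cdh13 (0.54), Cdh20 (0.0667), Cdh24 (0.409), Pcdh15 (0.889) and Pcdha1 (0.103). Below, each region is set against the mean of the others. This includes members that the joint test did not call, so the calls of Cdh20 and Pcdha1 below lack a joint call. Hindbrain had 9 cells in Apcdd1+/- replicate 1, so it left each fit without Apcdd1+/- replicate 2, WT replicate 1 or WT replicate 2. Those runs set a region against fewer others, and the part of this in a lost call was not tested. Neural retina had too few gated cells to be tested.

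Pcdh19 marked the telencephalon. It measured 95.2, 67.9, 84.4 and 111 CPM in the dorsal telencephalon (89.7 ± 18.3) and 90.2, 45.9, 87.3 and 109 CPM in the ventral telencephalon (83.2 ± 26.7), while the means of the other 6 regions were between 3.67 and 10.4 CPM. The dorsal difference was 3.84 ± 0.12 (adjusted p = 4.8e-32), and the ventral one, in the fit with 10 cells or more, 3.18 ± 0.23 (adjusted p = 5.9e-17). Dorsal and ventral values overlapped. In the dorsal telencephalon 2 members were higher and 2 lower, beside 1.27% and 3.64% of all genes. Cdh4 had 36.7, 46.5, 40.8 and 45.1 CPM there (42.3 ± 4.41), 1.12 ± 0.11 higher (adjusted p = 3.1e-12), and Pcdh7 was lower by −1.04 ± 0.26, a call lost with stricter gates (−0.29, adjusted p = 0.53) and with at least 10 cells a sum (−0.94). In the ventral telencephalon 3 were higher and none lower, beside 1.07% and 1.14% of all genes. Besides Pcdh19 they were Cdh7 (1.75 ± 0.46) and Cdh22 (1.42 ± 0.37). The Cdh7 call was lost with stricter gates (adjusted p = 0.186) and without WT replicate 2 (0.189). The Cdh22 call was lost with stricter gates (adjusted p = 0.118) and without Apcdd1+/- replicate 1 (0.0622), Apcdd1+/- replicate 2 (0.125) or WT replicate 2 (0.0828).

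Pcdh8 had the opposite layout. It measured 79.5, 99.0, 68.7 and 65.0 CPM in the floor plate (78.0 ± 15.3) and 41.7, 35.2, 35.2 and 50.5 CPM in the midbrain (40.7 ± 7.24). In the hindbrain the 3 libraries with enough cells had 41.0, 35.5 and 58.0 CPM, so midbrain and hindbrain overlapped below the floor plate. The dorsal telencephalon had 2.12 ± 0.761 CPM, −2.93 ± 0.24 against the other regions (adjusted p = 9.1e-15). The floor plate was higher by 2.93 ± 0.14 (adjusted p = 1.2e-23), the hindbrain by 2.17 ± 0.17 and the midbrain by 1.98 ± 0.13.

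The floor plate, the ventral midline that secretes Sonic hedgehog, had 3 members higher and 3 lower, beside 4.34% and 1.24% of all genes. Cdh6 measured 222, 270, 228 and 234 CPM there (239 ± 21.6) and 221, 265, 160 and 215 CPM in the hypothalamus (216 ± 42.9). These 2 ventral regions overlapped and stood above the hindbrain (44.2 ± 7.39 CPM), with differences of 1.49 ± 0.07 (adjusted p = 7.2e-24) and 1.37 ± 0.07 (adjusted p = 1.6e-23). Cdh8 was the other one higher in the floor plate besides Pcdh8, at 28.4 ± 15.3 CPM and 1.43 ± 0.18. The lower ones were Cdh10, Cdh20 and Pcdh19 (−1.41 ± 0.32), and the call of Cdh20 was lost without the library block and without Apcdd1+/- replicate 1, Apcdd1+/- replicate 2 or WT replicate 1. With cells thinned to 5000 UMIs, Pcdh19 was −0.047 (adjusted p = 0.909) and Cdh8 0.87 (adjusted p = 0.43) in the floor plate, and without WT replicate 2 Cdh8 was 0.79. In the hypothalamus 3 were higher and 1 lower, beside 1.81% and 1.4% of all genes. Cdh11 was higher there by 1.2 ± 0.15 and Pcdh10 by 1.60 ± 0.38 (adjusted p = 0.0023), a call lost without Apcdd1+/- replicate 1. Pcdh8 was the lower one, a call lost with thinned cells (−1.38, adjusted p = 0.097) and without Apcdd1+/- replicate 2 (−0.99).

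The midbrain had 2 higher and none lower, beside 1.44% and 0.619% of all genes. Cdh22 measured 18.3, 24.8, 20.0 and 27.1 CPM there (22.5 ± 4.08), 1.99 ± 0.17 higher (adjusted p = 1.6e-13), and 3.03 CPM in thalamus and pretectum. The hindbrain had 3 higher and 4 lower, beside 2.44% and 2.39% of all genes. Pcdh17 had 18.9, 22.7 and 32.9 CPM in its 3 libraries, 1.52 ± 0.22 higher, while Cdh6 (−1.30 ± 0.11), Cdh8 (−2.38 ± 0.32), Pcdh9 (−1.26 ± 0.25) and Pcdh7 (−1.08 ± 0.37, adjusted p = 0.041) were lower. The Pcdh7 call was lost in 5 runs, with adjusted p from 0.0527 to 0.142: with DESeq2, without the library block, with at least 10 cells a sum, without cells above 2 times the median UMI count and without Apcdd1+/- replicate 1. With thinned cells Cdh6 was −0.75. In thalamus and pretectum no member was higher and 4 were lower, beside 0.995% and 2.29% of all genes: Cdh7 (−2.59 ± 0.58), Cdh11 (−1.55 ± 0.24), Cdh22 (−1.41 ± 0.36) and Pcdh8 (−1.37 ± 0.27). The Cdh22 call was lost without Apcdd1+/- replicate 1 (−0.99, adjusted p = 0.0937) and without cells above 2 times the median UMI count (0.0614). The Pcdh8 call was lost with thinned cells (−0.82, adjusted p = 0.737) and without Apcdd1+/- replicate 2 (−0.95).

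The roof plate, the dorsal midline, had 6 higher and 2 lower, beside 5.75% and 1.66% of all genes. Cdh11 measured 73.6, 41.1, 55.1 and 75.3 CPM there (61.2 ± 16.3), 2.19 ± 0.18 higher (adjusted p = 1.8e-14). Pcdh7 had 39.8, 60.0, 16.8 and 63.8 CPM (45.1 ± 21.6), 2.80 ± 0.26 higher (adjusted p = 1.6e-12), with WT replicate 1 the lowest library and the other region means between 4.07 and 11.9 CPM. Pcdh9 was higher by 1.44 ± 0.22, Pcdh10 by 1.71, Pcdha1 by 1.33 and Cdh7 by 1.28. The lower ones were Pcdh17 (−1.79) and Pcdh8 (−1.35). The calls of Cdh7 and Pcdh8 in this region were lost without WT replicate 1 or WT replicate 2, that of Pcdha1 without WT replicate 1, that of Pcdh17 without WT replicate 2 and that of Pcdh10 without Apcdd1+/- replicate 2. Hindbrain was also out of these fits. The Cdh7 call was lost as well without cells above 2 times the median UMI count (adjusted p = 0.0541) and with at least 10 cells a sum (0.0803). Cdh2 was nearly even across regions, with means between 100 and 139 CPM.

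**Figure D4:**
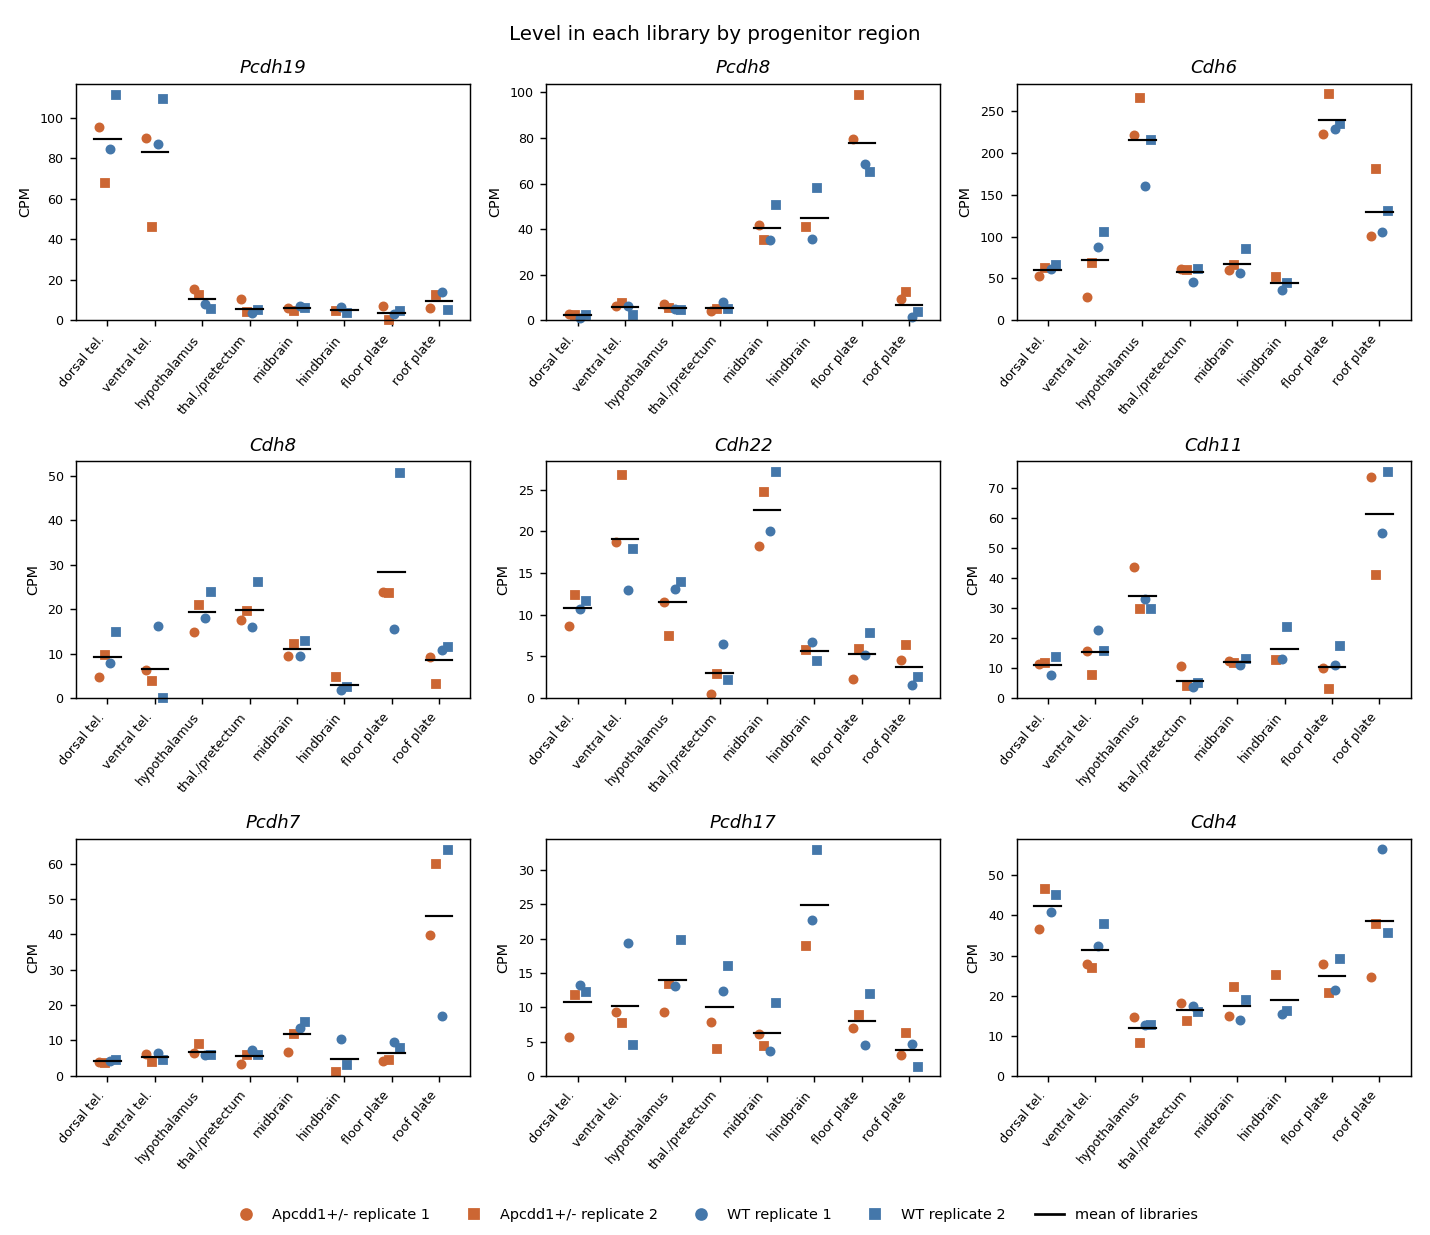
CPM of 9 members in 8 progenitor regions, with 1 point per library, colour for genotype and a bar for the mean. Pcdh19 stands high in both telencephalic regions, Pcdh8 in floor plate, midbrain and hindbrain, Cdh6 in floor plate and hypothalamus, Cdh22 in midbrain, and Cdh11 and Pcdh7 in roof plate.

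Within neurons, 6 of 12 members tested differed among the 6 subtype gates, beside 24.9% of all genes. Not called were Cdh2 (adjusted p = 0.323), Cdh11 (0.114), Cdh12 (0.0624), Pcdh10 (0.688), Pcdh15 (0.439) and Pcdhga1 (0.152). Cdh6 measured 15.2, 262, 245 and 369 CPM in sensory ganglion neurons (223 ± 149) and 109, 209, 159 and 396 CPM in Phox2 neurons (218 ± 125), a class that includes cranial motor neurons. The other subtype means lay between 4.12 and 30.5 CPM. The sensory difference was 3.37 ± 0.34 (adjusted p = 2.2e-08) and the Phox2 difference 3.23 ± 0.39 (adjusted p = 1.9e-06), and both were called in every run without 1 library. In the order given above for the library left out, the sensory difference was then 2.58, 2.08, 2.15 and 3.15, and the Phox2 difference 2.07, 2.10, 2.34 and 2.96. In all of these runs but that without WT replicate 2, the GABAergic-selector and Tbr1 or Eomes gates left the fit. WT replicate 2 had only 3 and 6 such cells, so too few libraries remained. Each gate was then set against fewer others, and the same holds for such runs below.

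Apcdd1+/- replicate 1, the lowest library for Cdh6 in the sensory gate, was also the lowest there for other genes. Eya2 measured 147, 495, 442 and 641 CPM there, and Isl1, a marker of the gate, 928, 1526, 1180 and 1325 CPM. These 2 genes were picked after their values were seen, and their part in the low Cdh6 was not tested. In the other 3 libraries Cdh6 was higher in both gates than in any other subtype mean.

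In the sensory gate 2 members were higher and 1 lower, beside 4.48% and 2.58% of all genes. Pcdh17 measured 5.06, 126, 115 and 219 CPM (116 ± 87.7) and was higher by 1.09 ± 0.31 (adjusted p = 0.014), a value of 2.03 without Apcdd1+/- replicate 1 and a call lost with DESeq2 (adjusted p = 0.155) and without Apcdd1+/- replicate 2 or WT replicate 2. Pcdh9 measured 45.5, 6.58, 22.8 and 15.2 CPM (22.5 ± 16.7) and was lower by −1.57 ± 0.42 (adjusted p = 0.0086), or −2.42 without Apcdd1+/- replicate 1, and not called with DESeq2 (adjusted p = 0.0677), without cells above 2 times the median UMI count (0.0706) or without WT replicate 2. In both genes the first library differed from the other 3. In the Phox2 gate 2 were higher and 1 lower, beside 2.05% and 0.793% of all genes. Pcdh17 had 12.9, 3.48, 24.0 and 5.43 CPM there (11.4 ± 9.28), −2.72 ± 0.57 (adjusted p = 0.0031), and Cdh12 had 32.2, 24.4, 50.1 and 10.9 CPM (29.4 ± 16.4), 2.98 ± 0.73 higher (adjusted p = 0.016). Both calls were lost without Apcdd1+/- replicate 2 or WT replicate 1, that of Pcdh17 also with thinned cells (adjusted p = 0.17) and that of Cdh12 with stricter gates (0.0547). Cdh12 was also not called in the joint test among subtypes.

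Central Pou4f1 neurons had 2 members higher and none lower, beside 3.38% and 0.843% of all genes. Pcdha1 measured 66.3, 63.4, 59.7 and 60.4 CPM (62.4 ± 3.03), 1.39 ± 0.29 higher (adjusted p = 0.0016), and Cdh4 37.9, 38.9, 37.0 and 62.9 CPM (44.2 ± 12.5), 1.07 ± 0.28 higher (adjusted p = 0.012). Both calls were lost in some runs without 1 library. Pcdha1 was 0.73 without Apcdd1+/- replicate 1, 0.91 without Apcdd1+/- replicate 2 (adjusted p = 0.171) and 0.70 without WT replicate 1 (adjusted p = 0.395). None of these was called, and the GABAergic-selector and Tbr1 or Eomes gates had left those fits. Without WT replicate 2, a run that kept both gates, Pcdha1 was 1.41 (adjusted p = 0.0038) and called. With thinned cells Pcdha1 was not called (adjusted p = 0.106). Cdh4 was 0.83 without WT replicate 2 (adjusted p = 0.106) and 0.99 without cells above 2 times the median UMI count. Tbr1 or Eomes neurons had none higher and 1 lower, Pcdha1 at 6.68 ± 1.56 CPM (n = 3, −2.48 ± 0.76, adjusted p = 0.045, or 0.0634 with DESeq2), beside 2.52% and 2.36% of all genes. GABAergic-selector neurons had no member called in either direction, beside 1.67% higher and 1.17% lower. The same held for Lhx1 or Lhx5 neurons, beside 1.26% and 0.0992%.

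**Figure D5:**
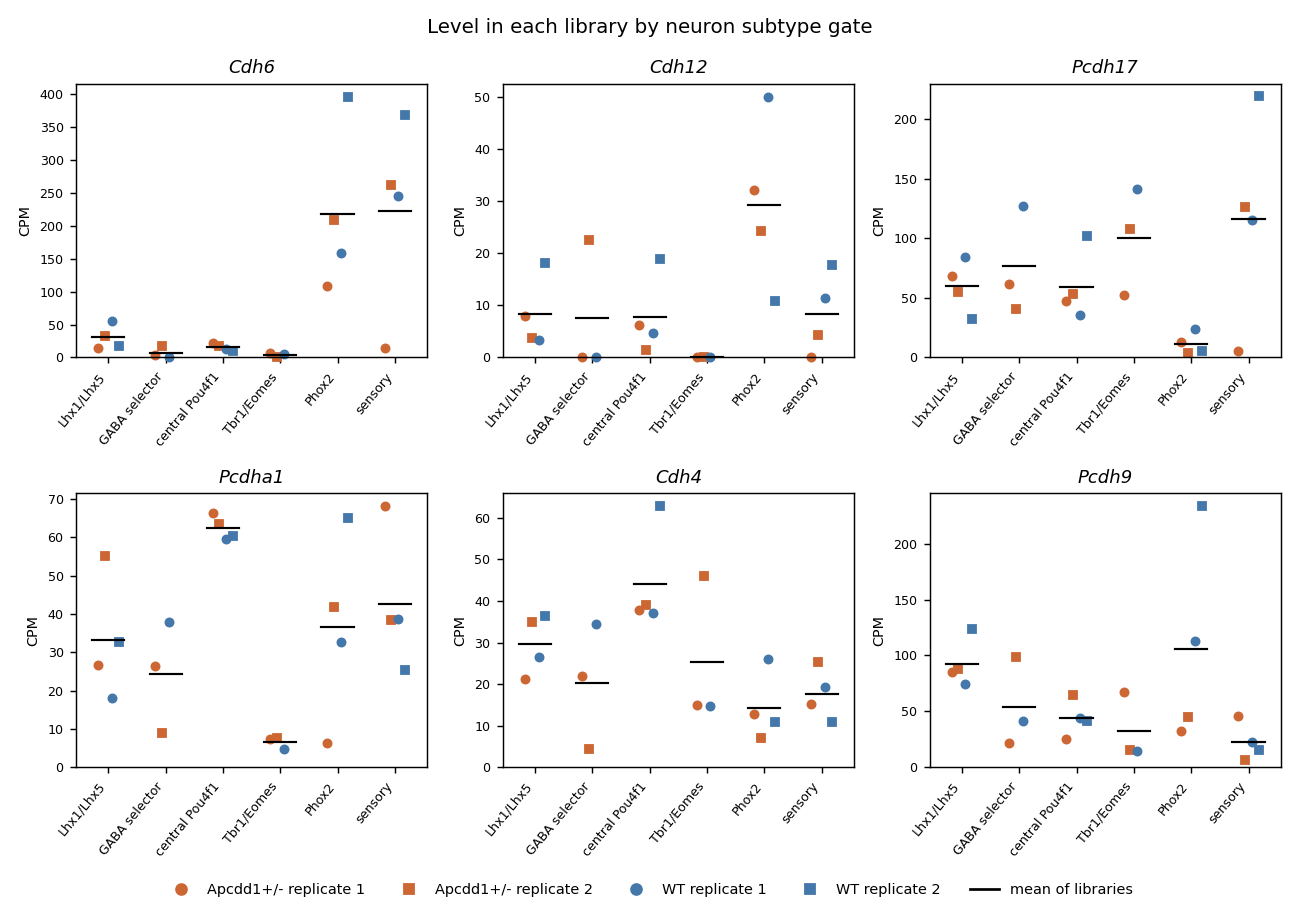
CPM of 6 members in 6 neuron subtype gates, with 1 point per library, colour for genotype and a bar for the mean. Cdh6 stands high in Phox2 and sensory neurons apart from 1 low sensory point of Apcdd1+/- replicate 1, and Pcdha1 lies between 59.7 and 66.3 CPM in central Pou4f1 neurons.

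Counts of the alpha and gamma clusters fell almost wholly on 1 gene each, and those of the beta cluster did not. Pcdha1 held 93.6% of the 1336 alpha UMIs, Pcdhga1 91.3% of the 33651 gamma UMIs and Pcdhb22 23.1% of the 588 beta UMIs. In the annotation the 11 other alpha genes and the 20 other gamma genes start within these genes and share an exon start with them, so how reads were split among them is uncertain and the sums are the firmer values. The alpha sum was 39.5, 46.7, 36.6 and 38.4 CPM in neurons (40.3 ± 4.45) and 2.94 ± 0.601 CPM in progenitors. Without Pcdha1 it was 3.56 ± 1.00 against 0.135 CPM. Pcdha1 alone was 3.73 ± 0.20 above progenitors (adjusted p = 1.8e-19), the highest of the 9.

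The beta sum was 13.6, 12.9, 10.9 and 14.7 CPM in neurons (13.0 ± 1.6), 9.35 ± 6.57 CPM in endothelium, 2.68 ± 0.941 CPM in mesenchyme and 0.935 ± 0.22 CPM in progenitors. Crest and erythroid cells had 0. Of 1219 neurons, 111 had a beta UMI, and 14 of these had 2 or more beta genes (12.6%, 95% exact interval 7.07% to 20.3%, which covers counting error only). In all, 20 of the 22 beta genes were seen in neurons, and the most in 1 neuron was 3. Pcdhb22, the beta gene with the most UMIs (136), measured 4.53, 0, 5.20 and 18.5 CPM in endothelium (7.07 ± 7.99), where WT replicate 2 carried most of the level, and 2.05 ± 0.966 CPM in neurons. The next were Pcdhb5 with 64 UMIs and Pcdhb21 with 55 over all cells. After Pcdha1, the alpha genes with the most UMIs were Pcdhac2 with 21 and Pcdha11 with 14, too few to place.

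The gamma sum was less tied to neurons: 296 ± 35.5 CPM in endothelium, 215 ± 37.7 in mesenchyme, 173 ± 25.5 in neurons and 86.1 ± 6.48 in progenitors, with 9.62 CPM in macrophages and 1.51 CPM in erythroid cells. Pcdhga1 measured 129, 192, 164 and 153 CPM in neurons (159 ± 26.1) and 69.7, 81.5, 76.2 and 84.8 CPM in progenitors (78.0 ± 6.56), and no values overlapped. It was 1.04 ± 0.08 higher in neurons than in progenitors (adjusted p = 1.4e-16), and 0.89, under the size set for a call, without Apcdd1+/- replicate 2. Of the C-type genes at the end of the gamma array, Pcdhgc3 measured 6.04, 6.98, 10.4 and 14.8 CPM in endothelium (9.56 ± 3.98), 5.02 ± 0.943 CPM in mesenchyme and 1.12 ± 0.930 CPM in neurons. Pcdhgc4 was even, at 1.76 ± 0.316 CPM in progenitors, 2.27 ± 0.927 CPM in neurons and 2.91 ± 1.21 CPM in mesenchyme.

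The partners of cadherins were read from lists of genes, with each class set against progenitors. Of all genes tested, 17.9% were higher and 11.7% lower in neurons, and 11.2% and 6.86% in epithelium. In mesenchyme these shares were 7.66% and 10.1%, and in endothelium 16% and 15.5%. They stand beside all list counts below. Of 10 catenins and adaptors, 2 were higher and 1 lower in neurons, 3 and 0 in epithelium, and 2 and 1 in mesenchyme, with list medians of 0.28, 0.88 and −0.31 beside 0.07, −0.01 and −0.03 for all genes. Jup, plakoglobin, was higher in neurons (4.27 ± 0.14), epithelium (4.75 ± 0.14) and mesenchyme (2.24), and Ctnna2, neural alpha-catenin, in neurons (2.55 ± 0.09). In endothelium 5 of 9 tested were higher and 3 lower, with Jup at 6.50 and Ctnna2 at −2.65.

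Of 7 E-cadherin repressors, Twist1 is also a gate marker of mesenchyme and thus no result there. Of the other 6, 3 were higher and 1 lower in mesenchyme, with a list median of 2.04, beside 7.66% and 10.1% of all genes. The higher ones were Twist2 (6.08), Snai1 (5.96) and Snai2 (3.98). In epithelium 2 were higher and 3 lower, with Zeb1 at −4.62 and Zeb2 at −3.45, and Snai2 higher by 4.09 beside high Cdh1.

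Of 13 members of the wider superfamily with enough counts, out of 21 listed, 5 were higher and 5 lower in neurons. This compares with 17.9% and 11.7% of all genes. Cdhr1 was higher by 6.93 and Celsr3 by 4.65. Desmocollin Dsc2 was lower by −2.66 and Celsr1, a planar polarity gene, by −2.12. In epithelium 4 were higher and 4 lower, beside 11.2% and 6.86% of all genes. Desmoglein Dsg2 was at 7.30, Cdhr1 at 3.69, Dsc2 at 3.46 and Celsr2 at −2.81. Of 10 regulators of the clusters, CTCF and cohesin among them, none was called in neurons or mesenchyme, where the neuron median was −0.68. Of 4 nectins, 2 were higher in epithelium, Nectin4 by 5.92. Of 5 cleaving and turnover genes, 1 was called in neurons, Psen2 at 1.26.

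Genes with patterns like those of members were found by Pearson r over 32 class and library sums, which share libraries and depth and give a description only. Nearest to Cdh2 were Fam171a2 (r = 0.949), Zcchc14 (0.941) and Ppm1l (0.939). Nearest to Pcdha1 were Gng3 (0.965), Chst8 (0.964) and Gpr85 (0.961), to Pcdh18 Sox9 (0.945), Cited1 (0.935) and Efnb1 (0.914), and to Pcdhga1 Fscn1 (0.977), Arl2bp (0.967) and Cnn3 (0.959). For Cdh6 they were Tspan7 (0.903), Nr2f1 (0.899) and Abat (0.886), and for Pcdh9 Fbxo16 (0.927), Kcnh2 (0.924) and Pnmal2 (0.921). Weaker matches were found for Cdh13, with Exoc6b first (0.839), for Pcdhb22, with Gimap8 (0.830), and for Pcdh15, with Zup1 (0.801).

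The genotypes were compared over all cells and within the 3 most frequent classes. No member was called, of 60 tested over all cells, 42 in progenitors, 21 in neurons and 27 in mesenchyme, beside 0% of all genes, and DESeq2 called 0 of them too. With unadjusted p under 0.05 there were 1, 0, 2 and 0 members, beside 1.18%, 1.38%, 2.24% and 1.6% of all genes. Pcdh17 was −0.71 ± 0.24 (unadjusted p = 0.0131) in neurons labelled Apcdd1+/-, with 55.2 and 70.6 CPM against 80.9 and 131 CPM in WT, and Pcdh7 was 1.01 ± 0.43 (unadjusted p = 0.0402). Cdh6 in neurons was −0.95 ± 0.53 (unadjusted p = 0.099). Cells of the sensory gate made up 9.72%, 23.4%, 16.7% and 34.5% of the neurons of the 4 libraries. Some alternatives changed these calls, and in each of them the number of genes called among all tested rose as well, from 0. With the replicate number as a block, Cdh6 (−1.19, adjusted p = 2.3e-07) and Pcdh17 (−0.69, adjusted p = 0.0398) were called in neurons, among 41 genes in all. Without the filter on low counts Cdh6 was called there (adjusted p = 0.0114), among 11 genes. Leaving out a library leaves its genotype with 1 library, which is then assumed to vary like the 2 of the other genotype. Without Apcdd1+/- replicate 2, Cdh6 (−2.49, adjusted p = 1.1e-15) and Pcdh17 (−0.89, adjusted p = 0.0377) were called in neurons, among 143 genes, and without WT replicate 1 Cdh6 was (−1.36, adjusted p = 0.00085), among 44. Without Apcdd1+/- replicate 1, Cdh5 was called over all cells (−1.46, adjusted p = 0.0407), among 109. With the 4 libraries but without sensory and Phox2 neurons the Pcdh17 difference was −0.34 and that of Cdh6 0.20. In a test of whether the genotype difference itself varied between neurons and progenitors, the lowest adjusted p over 33 members was 0.929.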

How the data were processed

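The authors deposited matrices from PISA 0.12, per the file headers, whose values are raw UMI counts. The submitters' processing notes list mm10 and Scanpy 1.9.1 without saying what each was used for, and no aligner or annotation is named there. The members and gene lists were chosen with earlier results of these data known.

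Cells with at least 500 genes and under 10% mitochondrial counts were kept and gated on markers (4 of 8, 3 of 6, or 5 for neurons). Gate thresholds were set after marker detection was seen. No doublet caller was run, and cells passing several gates (675) or none (6346) were left out. Counts were summed per library and class and tested with edgeR 4.0.16 in R 4.3.3 (TMM, low counts filtered, Benjamini-Hochberg adjustment), and with DESeq2 1.42.0 as an alternative. A sum needed 20 cells, or 10 for subtypes, in 3 libraries. The SE is the size of the difference over the root of its F statistic. The model was tested on simulated data. Members at 10 CPM or more in some class, region or subtype were named, with up to 3 genes per cluster.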

Additional observations from a re-analysis of the deposited data

Results flagged for a closer look

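In 3 of 23 groups of 4 libraries checked, 1 library lay far from the others, by a gap to the nearest library that exceeded Dixon's critical share of the group's range, where chance flags about 1 in 20 groups. Cdh4 in central Pou4f1 neurons of WT replicate 2 was 62.9 CPM (gap 0.925 of the range). Pcdh15 in Lhx1 or Lhx5 neurons of WT replicate 1 was 37.9 CPM (0.943). Pcdhga1 in endothelium of Apcdd1+/- replicate 2 was 338.4 CPM (0.945).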

How the results depend on the processing

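Counts of members called are given here with the share of all genes tested under the same alternative. The number of members tested also changed with the alternative. Without the filter on low counts, 43 of 89 members tested differed among classes (67.2% of genes) and 35 of 89 were higher in neurons (11.9%). In that setting 11 of 84 differed among subtypes (16%) and 1 of 85, Cdh6, by genotype in neurons (0.0645%). With cells thinned to 5000 UMIs, which removes most counts, fewer members could be tested. Of these, 18 of 18 differed among classes (88.7%) and 2 of 18 were lower in neurons (10.6%). Among regions 5 of 7 differed (16.2%), and among subtypes 3 of 6 (20.2%). Leaving out 1 library at a time gave 25 to 27 members among classes (92% to 92.9%), 7 to 8 higher (16.1% to 18.1%) and 3 to 6 lower in neurons (11.4% to 12.8%), 14 to 16 among regions (35.8% to 38.8%) and 3 to 8 among subtypes (6.9% to 25.6%). By genotype it gave 0 to 1 over all cells (0% to 1.34%), 0 to 2 in neurons (0.0341% to 1.22%), and 0 in every run for progenitors (0% to 0.559%) and for mesenchyme (0.00806% to 0.291%). The runs without 1 library tested 26 or 27 members among classes, 18 to 21 among regions and 12 to 14 among subtypes. The lowest counts of members called came without WT replicate 2 for members lower in neurons, and without Apcdd1+/- replicate 2 or WT replicate 1 for subtypes. In the subtype test, runs without Apcdd1+/- replicate 1, Apcdd1+/- replicate 2 or WT replicate 1 lacked the GABAergic-selector and Tbr1 or Eomes gates. Runs without Apcdd1+/- replicate 2, WT replicate 1 or WT replicate 2 lacked hindbrain among regions and crest and glia among classes. The cause of the lower counts was not tested. With DESeq2, DESeq2-type size factors, no library block, stricter gates, cells over 2 times the median UMI count left out, or at least 10 cells a sum, these counts stayed within 1.5 times.

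Of 1321 alternatives run for 126 results of single members, 1218 kept direction and stayed on their side of the threshold, which for class differences is both the adjusted p and the log2 size of 1. Another 95 lost the threshold, 6 gained it and 2 changed sign. Of 123 single-member results between classes, 36 lost it at least once. Runs in which a member did not pass the filter, or its class left the fit, gave no value and are not among the 1321. Some results were thus tested in fewer runs than others. With thinned cells 58 results kept the threshold and 13 lost it, and the rest had no value. Both that changed sign were Cdh6 by genotype in neurons without sensory and Phox2 neurons, at 0.197 without and 0.183 with a replicate block.

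The labels do not say that replicate numbers pair the samples, and with 2 pairs the deviations of same-numbered libraries had r = 0.183 over all cells, 0.0551 in progenitors, 0.133 in neurons and 0.143 in mesenchyme. With the replicate number as a block, 2 members were called by genotype in neurons (Cdh6 −1.19, adjusted p = 2.3e-07, and Pcdh17 −0.69, adjusted p = 0.0398), beside 0.361% of genes, and 0 in the other 3 comparisons.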
